A study of Rattus norvegicus with 72 samples.

Results

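Transcript levels in the central nucleus of the amygdala (CeA) were compared between Zeitgeber times ZT9 and ZT5, both in the light phase of the day. The comparison takes the 12 CeA samples labelled ZT9 and the 14 labelled ZT5, which make 26 of the 72 samples of the study, and all 145 genes of its panel. All animals were male Sprague Dawley rats that were alcohol-naïve, housed individually, held on a calorie-restricted Lieber-DeCarli liquid control diet matched to the intake of alcohol-fed animals, and not otherwise treated. They were killed by decapitation, and 1 sample is the RNA of the bilateral CeA punches of 1 rat, so the 26 samples are 26 animals. The remaining samples are 7 CeA samples at ZT3 and the samples of the dorsal vagal complex (DVC), a brainstem region. RNA was extracted with 1 of 2 kits, which the labels do not assign to samples. The question addressed is whether basal expression of signaling genes in the CeA, a region not known as a clock, shifts with the time of day.

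The CeA is the output nucleus of the amygdala. Most of its neurons use GABA, it is rich in stress peptides such as corticotropin-releasing factor and in opioid receptors, and it takes part in fear, stress and autonomic regulation. Nr4a2 (Nurr1) is an orphan nuclear receptor and an immediate early gene in many neurons, switched on through calcium and cAMP signals. CREB1 is the factor that binds the cAMP response element, and CREBBP is the acetyltransferase that CREB1 recruits.

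Expression was measured by microfluidic qRT-PCR as C_T, the cycle at which product crosses a threshold, so a lower C_T means more transcript and 1 cycle is about a doubling. Values here are C_T after the authors' quantile normalization, and each difference is the ZT5 mean C_T minus the ZT9 mean C_T, which is above 0 when the transcript was more abundant at ZT9. The sample ZT5 replicate 1 lacked 78 genes and ZT9 replicate 10 lacked 74, and the leading 72 assays of the panel failed in both. The other 24 samples lacked between 1 and 9 genes. These 2 partly measured samples are kept in the values below unless stated.

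In the qRT-PCR, each gene was read through 1 amplicon. The primer pairs of 5 of the 6 genes with the smallest p-values are shown because each result below is a measurement of that amplicon alone, and all letters are lower case because no base is singled out.
Nr4a2 forward: ccacgtcgactccaatcc
Nr4a2 reverse: tagtcagggtttgcctggaa
Snx10 forward: cccagaacagcagaaagagg
Snx10 reverse: ccttctgaatcctggggtct
Crebbp forward: tcacagcagcaaccaacg
Crebbp reverse: ggctgctgcctgagaaag
Creb1 forward: ctagtgcccagcaaccaagt
Creb1 reverse: ggaggacgccataacaactc
Coq7 forward: ggaggaggacgctgagaagt
Coq7 reverse: gctcctcatctcgaaactgc
The amplicons are short, from 62 bases for Snx10 to 114 bases for Creb1.

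All but 3 of the 145 genes had 2 or more values in each group and were tested, and 2 of them differed between ZT9 and ZT5 at a Benjamini-Hochberg adjusted limma p of at most 0.05, a share of 1.41%. They were Nr4a2, higher at ZT9, and Snx10, lower at ZT9 (0.704% in each direction). Without the 2 partly measured samples Nr4a2 alone passed. At an unadjusted limma p of at most 0.05, the threshold of the study's methods, 19 genes passed (13.4% of those tested), 8 of them higher (5.63%) and 11 lower at ZT9 (7.75%). Differences beyond 0.25 cycles in either direction were found for 52 genes (36.6%), 26 higher and 26 lower (18.3% each). Below, "past the unadjusted threshold" refers to these 19 genes, and all but Nr4a2 and Snx10 of them missed the adjusted threshold.

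**Figure D1:**
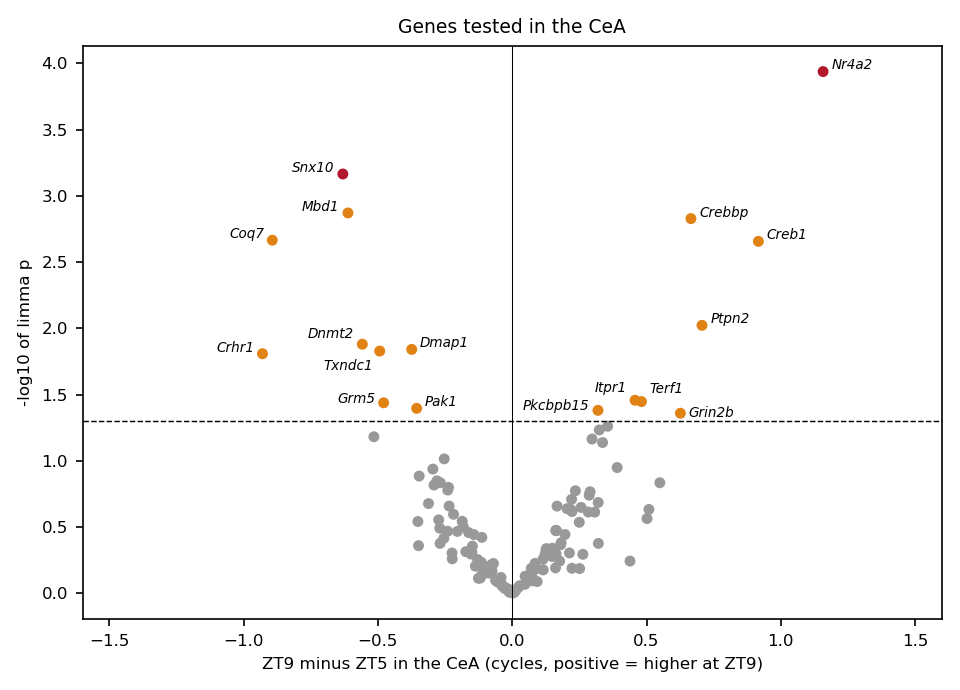
Difference between ZT9 and ZT5 in the CeA in cycles (x axis, positive is higher at ZT9) against −log10 of the limma p (y axis) for the tested genes reported here. Red points are Nr4a2 and Snx10, past an adjusted p of 0.05, orange points are other genes with an unadjusted p of at most 0.05 (dashed line), and grey points are the remaining genes.

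Most genes moved little. The median difference over all tested genes was -0.0036 cycles, with 70 genes above and 72 below 0, and its median size was 0.18 cycles against a median standard error of 0.21. The median half-width of the 95% confidence interval was 0.44 cycles. Observed differences smaller than that mostly missed even the unadjusted threshold, and the adjusted threshold required larger ones. The spread among animals was larger at ZT9. The SD at ZT9 exceeded that at ZT5 in 97 of the tested genes, with median SDs of 0.56 and 0.46 cycles, and in 100 genes without the partly measured samples. The genes are measured in the same animals, so this is a description and was not tested.

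Nr4a2 (NCBI Gene 54278) had the smallest p-value. At ZT5 its normalized C_T lay between 23.20 and 24.96 with a median of 24.19 in 14 samples, and at ZT9 between 21.91 and 24.81 with a median of 22.88 in 11 samples. Of these 11 samples, 8 had more transcript than every ZT5 sample, and the only one below the ZT5 median was the partly measured replicate 10, at 24.81. The mean C_T was 24.07 ± 0.49 (SD, n = 14) at ZT5 and 22.91 ± 0.84 (SD, n = 11) at ZT9, a difference of 1.16 cycles (SE 0.26) or 2.23-fold (limma adjusted p = 0.0164). Without the partly measured samples the difference was 1.34 cycles (limma adjusted p = 3.91e-04). Nr4a2 remained past an adjusted p of 0.05 when any 1 of the 26 samples was left out (adjusted p from 1.96e-04 to 0.0466). On the non-normalized C_T the difference was 1.27 cycles and did not pass (limma adjusted p = 0.331).

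Nr4a2 was the only member of the immediate early list that passed. Of its 6 members, 5 were tested, and Jun (difference -0.24), Junb (0.21) and Egr1 (-0.14), activity-induced transcription factors, had unadjusted limma p of 0.158, 0.495 and 0.623. Fosl1, a Fos-related member, gave a value in 1 of the 13 fully measured ZT5 samples, at 25.78, and in 4 of the 11 at ZT9, from 23.51 to 27.12. It was not tested for level, and its share of successful reactions did not differ beyond counting error (two-sided Fisher's exact test p = 0.142).

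Creb1 (NCBI Gene 81646) and Crebbp (NCBI Gene 54244) were both higher at ZT9 without passing the adjusted threshold (limma adjusted p = 0.0522 for each). Creb1 was a late-crossing assay. At ZT5 it lay between 25.19 and 27.12 with a median of 25.77 in 13 samples, and at ZT9 between 24.22 and 26.24 with a median of 24.97 in 11 samples. Of the 11 ZT9 samples, 7 had more Creb1 than every ZT5 sample. The difference was 0.92 cycles (SE 0.27) or 1.89-fold. In 4 of the 13 ZT5 samples Creb1 was the gene with the highest C_T, to which quantile normalization gives the same value, 27.12, in every sample. On the non-normalized C_T the difference was 0.88 cycles (limma unadjusted p = 0.0102), and 0 genes, Creb1 included, passed the adjusted threshold there.

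Crebbp was measured in all 26 samples. It lay between 17.65 and 19.60 at ZT5 (median 18.61) and between 17.30 and 18.61 at ZT9 (median 18.01), and 11 of 12 ZT9 samples had more transcript than the ZT5 median. The difference was 0.67 cycles (SE 0.19) or 1.59-fold. The 2 partly measured samples were its extremes, ZT5 replicate 1 with the least and ZT9 replicate 10 with the most, and without them the difference was 0.53 cycles (limma adjusted p = 0.134). The remaining 5 members of the list of CREB and other transcription factors lay between -0.27 and 0.01 cycles, Mycn and ZEB1 at the ends and Atf2, Elk1 and Sp1 between them, and did not pass.

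**Figure D2:**
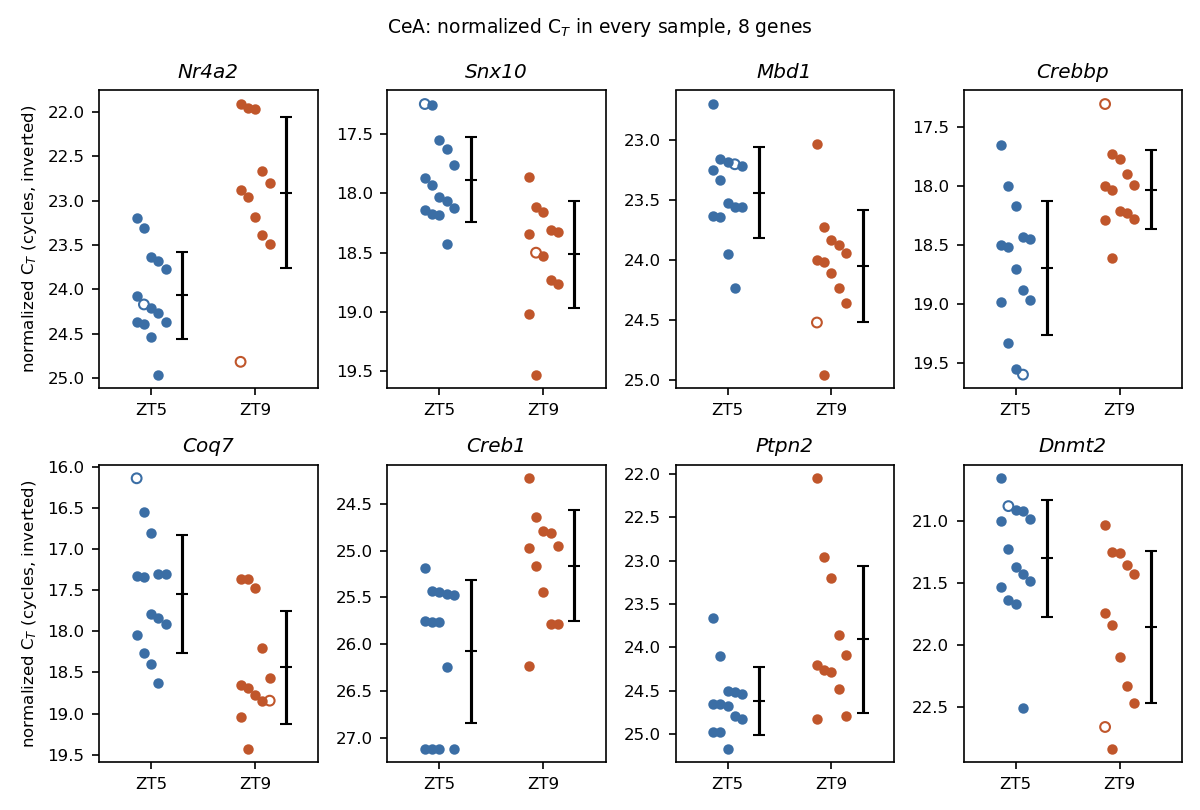
Normalized C_T in every CeA sample at ZT5 (blue) and ZT9 (orange) for 8 genes with small p-values, with the C_T axis inverted so that more transcript is higher. Open circles are the 2 partly measured samples, and the black marks are mean ± SD. For Nr4a2, 8 of 11 ZT9 samples lie above all ZT5 samples, and the open circle at 24.81 lies apart from them.

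The promoter windows of Nr4a2 and Creb1 are shown because both genes were higher at ZT9 and their windows held the motif below, while the window of Crebbp did not hold it and is not shown. Each spans 300 bases around the start listed by RefSeq (build GRCr8), 5′ to 3′ on the gene's strand. TGACG, a half-site of the cAMP response element and not the full element, is in capitals on either strand.
Nr4a2, chr3:62104838-62105137, minus strand: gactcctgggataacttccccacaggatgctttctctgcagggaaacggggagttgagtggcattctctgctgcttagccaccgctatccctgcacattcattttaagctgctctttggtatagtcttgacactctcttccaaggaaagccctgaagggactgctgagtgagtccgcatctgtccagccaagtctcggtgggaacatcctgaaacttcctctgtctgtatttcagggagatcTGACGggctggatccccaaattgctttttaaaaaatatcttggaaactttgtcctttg
Creb1, chr9:73397259-73397558, plus strand, the first of 2 listed starts: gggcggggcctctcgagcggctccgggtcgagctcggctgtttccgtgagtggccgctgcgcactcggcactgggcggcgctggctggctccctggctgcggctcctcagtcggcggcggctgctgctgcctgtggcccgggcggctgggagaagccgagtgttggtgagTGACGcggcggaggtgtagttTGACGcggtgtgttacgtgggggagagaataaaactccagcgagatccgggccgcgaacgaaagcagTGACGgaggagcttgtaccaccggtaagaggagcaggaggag
RefSeq held a window for 14 of the 19 genes past the unadjusted threshold, and TGACG occurred on either strand in 5 of them, those of Nr4a2, Creb1, Ptpn2, Coq7 and Pak1 (35.7%). It occurred in 29 of the 111 tested genes with a window (26.1%) and in 22% of all 27457 windows. The E-box CACGTG, bound by clock factors among others, occurred in 1 of the 14, that of Pak1. It occurred in 9.91% of the tested genes with a window and in 6.65% of all windows. These matches are descriptions of letters, not of binding.

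Snx10 (NCBI Gene 297096), a sorting nexin of endosomal traffic, was lower at ZT9. It lay between 17.25 and 18.42 at ZT5 (median 17.98, n = 14) and between 17.86 and 19.53 at ZT9 (median 18.42, n = 12), and 11 of 12 ZT9 samples had less transcript than the ZT5 median. The mean C_T was 17.88 ± 0.36 (SD) at ZT5 and 18.51 ± 0.45 (SD) at ZT9, a difference of -0.63 cycles (SE 0.17) or 1.55-fold lower (limma adjusted p = 0.0486). Without the partly measured samples the difference was -0.58 cycles (limma adjusted p = 0.101), and on the non-normalized C_T it was -0.47 cycles (limma unadjusted p = 0.246). With Hprt as reference it was -0.35 cycles (limma adjusted p = 0.22). The call also depended on single animals, since Snx10 stayed past the threshold in 14 of the 26 fits that left out 1 sample. The other 6 tested members of the list of synaptic and membrane traffic genes did not pass. The last of the list, the noradrenaline transporter Slc6a2, gave a value in 1 of the 13 fully measured ZT5 samples and in 0 of the 11 at ZT9.

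Of the 6 genes of DNA methylation, repair and telomeres, 4 were past the unadjusted threshold, against 13.4% of all genes tested. The list was not chosen independently of these data, so the count is a description. On the non-normalized C_T, 0 of the 6 were past the unadjusted threshold in either direction. Mbd1 (NCBI Gene 291439), which binds methylated CpG, lay between 22.70 and 24.24 at ZT5 (median 23.43, n = 14) and between 23.03 and 24.96 at ZT9 (median 24.01, n = 12). In 11 of 12 ZT9 samples Mbd1 was below the ZT5 median, and the difference was -0.61 cycles (SE 0.17) or 1.53-fold lower (limma adjusted p = 0.0522). Without the partly measured samples the Mbd1 difference was -0.55 cycles (limma adjusted p = 0.134). It was -0.32 cycles on the non-normalized C_T (limma unadjusted p = 0.332) and -0.18 cycles with Hprt as reference (limma adjusted p = 0.659). Dnmt2 (RefSeq symbol Trdmt1), a methyltransferase that acts on tRNA, had a difference of -0.56 cycles, and Dmap1, a partner of the maintenance methyltransferase, one of -0.37 cycles (limma adjusted p = 0.17 for both). Terf1, a telomere repeat binding protein, was higher by 0.48 cycles (limma adjusted p = 0.323) on 10 ZT5 and 12 ZT9 samples. Dnmt3a, a de novo methyltransferase, and Mgmt, a repair protein, were at 0.07 and 0.32 cycles.

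Genes of mitochondria, metabolism and the endoplasmic reticulum had 2 members past the unadjusted threshold, both lower at ZT9, out of 12 against 13.4% of all genes tested. Coq7 (NCBI Gene 25249), a hydroxylase of ubiquinone synthesis, lay between 16.13 and 18.62 at ZT5 (median 17.56, n = 14) and between 17.36 and 19.43 at ZT9 (median 18.67, n = 12). Of 12 ZT9 samples, 7 had less Coq7 than every ZT5 sample. The difference was -0.89 cycles (SE 0.27) or 1.86-fold lower (limma adjusted p = 0.0522), and -0.75 cycles without the partly measured samples (adjusted p = 0.134). Txndc1 (RefSeq symbol Tmx1), a thioredoxin-like protein of the endoplasmic reticulum, had a difference of -0.49 cycles (limma adjusted p = 0.17). In all, 10 of the 12 members were below 0, with a median of -0.11 cycles against -0.0036 over all genes, but on the non-normalized C_T, where the median of all tested genes shifted to 0.13 cycles, 4 of 12 were below 0. Hprt, an enzyme often used as a reference gene, had a difference of -0.28 cycles (limma unadjusted p = 0.141), below 0 under every scaling that gave it a value.

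Agtr2, an angiotensin receptor gene, gave 3 values at ZT5 and 1 at ZT9 and was not tested.

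Receptors for transmitters and peptides had differences in both directions. Gabrb1, the beta1 subunit, was at 0.32 cycles with an unadjusted limma p of 0.0584 (0.20 cycles without the partly measured samples), and 7 further GABA receptor subunits lay between -0.35 and 0.18 cycles. The genes of GABA synthesis and transport had 0 of 4 members past the unadjusted threshold, against 13.4% of all genes tested. Among them, Gad1, which makes GABA, was at -0.24 cycles. The vesicular transporter Slc32a1 was at -0.22 cycles, or -0.12 cycles without ZT5 replicate 16.

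Of 11 glutamate receptor and scaffold genes, 2 were past the unadjusted threshold, against 13.4% of all genes tested. Grm5, a metabotropic receptor coupled to phospholipase C, had a difference of -0.48 cycles, and Grin2b, an NMDA receptor subunit, one of 0.63 cycles (limma adjusted p of 0.323 and 0.326). All 12 ZT9 samples had more Grin2b than the ZT5 median, though the limma p rose to 0.0941 unadjusted without the partly measured samples. The scaffold gene Homer2 was at 0.39 cycles (unadjusted limma p = 0.112), and at 0.19 cycles without the partly measured samples.

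Crhr1 (NCBI Gene 58959), the receptor of corticotropin-releasing factor, lay between 23.00 and 25.77 at ZT5 (median 23.70, n = 14) and between 23.00 and 27.12 at ZT9 (median 24.63, n = 12). In 11 of 12 ZT9 samples it was below the ZT5 median, and the difference was -0.93 cycles (SE 0.36, limma adjusted p = 0.17). The other 7 neuropeptide, opioid and growth factor receptors and binding proteins lay between -0.35 cycles, for the opioid receptor Oprm1, and 0.22 cycles, and did not pass.

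All 6 phospholipase C and IP3 receptor genes were above 0, with a median of 0.22 cycles, and Itpr1, the main neuronal IP3 receptor, was past the unadjusted threshold at 0.46 cycles (limma adjusted p = 0.323). With each of the 2 sets of assays centred on its own median, 3 of these 6 genes were above 0 and Itpr1 did not pass. Ptpn2 (NCBI Gene 117063), a tyrosine phosphatase of cytokine and insulin signaling, lay between 23.66 and 25.17 at ZT5 (median 24.65, n = 13) and between 22.05 and 24.82 at ZT9 (median 24.20, n = 11), higher by 0.71 cycles (SE 0.25, limma adjusted p = 0.168). On the non-normalized C_T the Ptpn2 difference was 0.69 cycles (limma unadjusted p = 0.0868). With each set of assays centred it was 0.51 cycles and missed the unadjusted threshold (limma adjusted p = 0.605). With the animal group described below as a factor it was 0.89 cycles (limma adjusted p = 0.0227). The related Ptpn1 was at 0.35 cycles (unadjusted limma p = 0.0548).

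Pak1, a kinase of the cytoskeleton, was lower by 0.36 cycles and Pkcbpb15 (RefSeq symbol Rbck1), a ubiquitin ligase component that binds protein kinase C, was higher by 0.32 cycles (limma adjusted p = 0.326 for both). The Rgs family, which speeds the shut-off of G proteins, had 0 of 9 members past the unadjusted threshold, with Rgs2 at -0.52 and Rgs6 at 0.30 cycles (unadjusted limma p of 0.0657 and 0.0684). Of the ion channels and of the Ras regulators (6 tested genes each), 0 were past it. The PI3K-Akt-mTOR list (5), the MAP kinase cascade (9) and the list of GRKs and arrestins (6) also had 0 members past it. The share over all genes tested was 13.4%. In lists this small nothing is read from a count of 0, that of the Rgs family included. Plcb1, phospholipase C beta1, was at 0.34 cycles (unadjusted limma p = 0.0727).

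**Figure D3:**
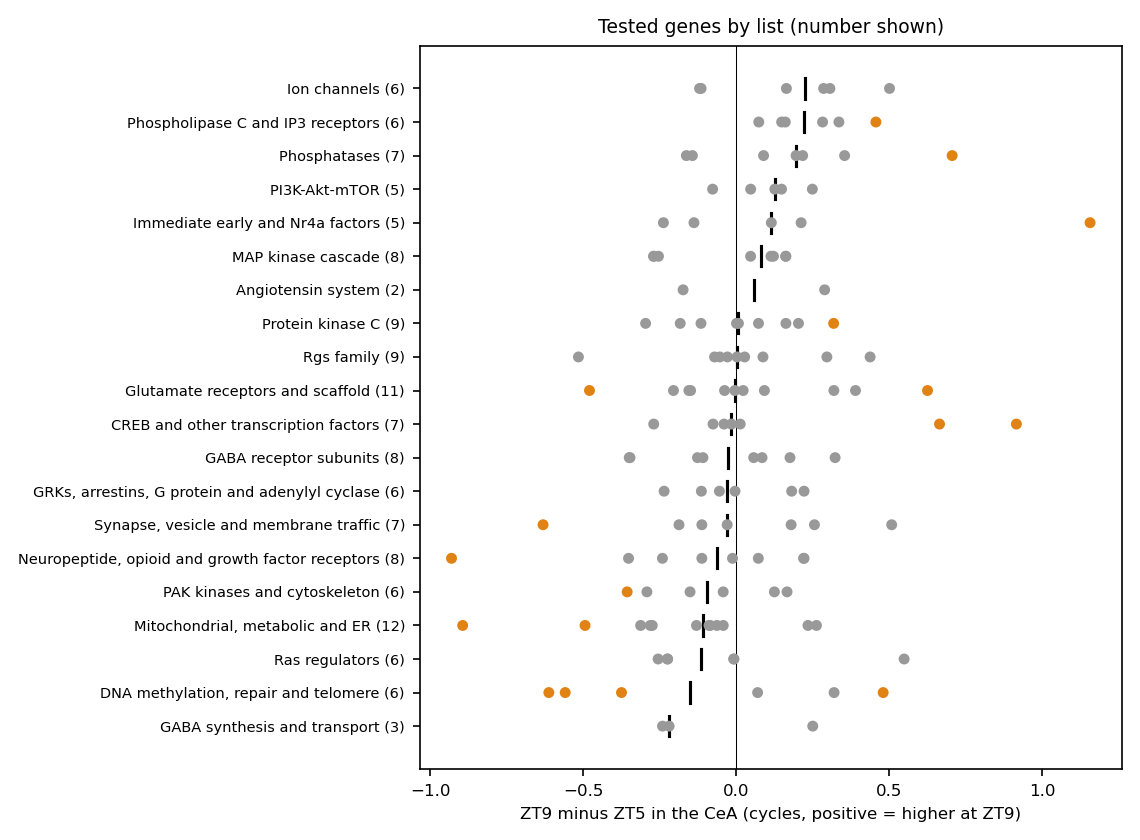
Difference between ZT9 and ZT5 in the CeA in cycles for the tested genes reported here (points), by gene list, with the median of the points as a black bar and their number in brackets, so lists with a gene not reported here are shown in part. Orange points have an unadjusted limma p of at most 0.05. The 4 orange points of the DNA methylation, repair and telomere list are Mbd1, Dnmt2, Dmap1 and Terf1.

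The tissue was checked against markers. Gad1 was measured in all 26 samples at C_T of 17.75 ± 0.38 (SD, n = 14) at ZT5 and 17.99 ± 0.45 (SD, n = 12) at ZT9. The defining noradrenergic marker Slc6a2 was all but absent. The 3 genes high in striatum, a neighbour of the CeA in the slice, had differences between -0.29 and -0.03 cycles, and in the samples with all of them their mean level ranged from -0.88 to 1.45 cycles around the average at ZT5 and from -0.75 to 0.80 at ZT9. The 5 glial and vascular genes had differences between -0.27 and 0.28 cycles. Of these and the striatal genes, 8 in all, 0 passed the unadjusted threshold, against 13.4% of all genes tested. Of the receptor and binding protein genes known in the CeA, Crhr1 (-0.93) passed the unadjusted threshold and Oprm1 (-0.35) and Crhbp (-0.24) did not, and in samples with all 3 their mean level ranged from -0.73 to 0.94 cycles at ZT5 and from -1.05 to 0.45 at ZT9. The part of these marker lists in the results above was not tested, and fewer cells of a type cannot be told apart from less RNA per cell in a punch.

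The signal before normalization was compared as well. The median non-normalized C_T of a sample averaged 20.28 ± 0.87 (SD, n = 14) at ZT5 and 20.11 ± 0.85 (SD, n = 12) at ZT9 (two-sided permutation test p = 0.599). Their difference was -0.18 cycles, and -0.04 cycles without the partly measured samples (two-sided permutation test p = 0.899). The median of the leading 72 assays minus that of the other 73, taken over genes measured in every fully measured sample, a set picked after the values were seen, averaged -0.65 ± 0.22 cycles (SD, n = 13) at ZT5 and -0.76 ± 0.24 (SD, n = 11) at ZT9 (two-sided permutation test p = 0.255), and over all genes the p was 0.25. After normalization these offsets were -0.59 and -0.78 cycles (two-sided permutation test p = 0.0559). Of 31 genes with a failed reaction in a fully measured sample, 0 differed between the times in the share that failed at an unadjusted two-sided Fisher's exact p of 0.05, the lowest being 0.0983 for Terf1.

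The animals carry numbers in the labels, and time points were not spread evenly over them. When the animals were split into lower and higher numbers, 5 of the ZT5 animals fell in the lower and 9 in the higher group, and of the ZT9 animals 7 and 5. What the numbers stand for is not given in the sources used here. All 19 genes past the unadjusted threshold had the same sign in both groups of animals, as did 82 of all genes tested. Within the higher-numbered animals 14 of the 19 had a two-sided exact permutation p of at most 0.05, against 19.7% of all genes tested, and within the lower-numbered animals 2 of 19, Snx10 among them, against 6.34%. The 19 were chosen on the same animals, so nothing is read from these shares.

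For Nr4a2 the difference was 0.71 cycles in lower-numbered animals (5 against 7 samples, exact permutation p = 0.14) and 1.7 cycles in higher-numbered animals (9 against 4, exact permutation p = 0.0014). The difference between those values was 0.995 cycles with a 95% interval from -0.07 to 2.06 (limma adjusted p = 0.606). For Mbd1 the values were -0.38 and -0.85 cycles and for Coq7 -0.78 and -1.10 cycles. Creb1 was at 0.33 cycles in lower-numbered animals (exact permutation p = 0.205) and 1.15 cycles in higher-numbered ones (exact permutation p = 0.019). All 4 ZT5 samples in which Creb1 had the highest C_T, 27.12, were of higher-numbered animals. With the animal group as a factor its difference was 0.80 cycles (limma adjusted p = 0.115). In limma, no gene (0) had a difference between the groups of animals past the adjusted threshold, and 11 (7.75%) were past the unadjusted one.

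Crhr1 was the 1 gene among the 19 with an unadjusted interaction p below 0.05. In lower-numbered animals its mean C_T was 24.58 ± 1.08 (SD, n = 5) at ZT5 and 24.59 ± 0.99 (SD, n = 7) at ZT9, a difference of -0.01 cycles. In higher-numbered animals the means were 23.58 ± 0.59 (SD, n = 9) and 25.25 ± 1.18 (SD, n = 5), a difference of -1.67 cycles (exact permutation p = 0.003). The interaction was -1.66 cycles with a 95% interval from -3.08 to -0.24 (limma unadjusted p = 0.0236, adjusted p = 0.479).

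**Figure D4:**
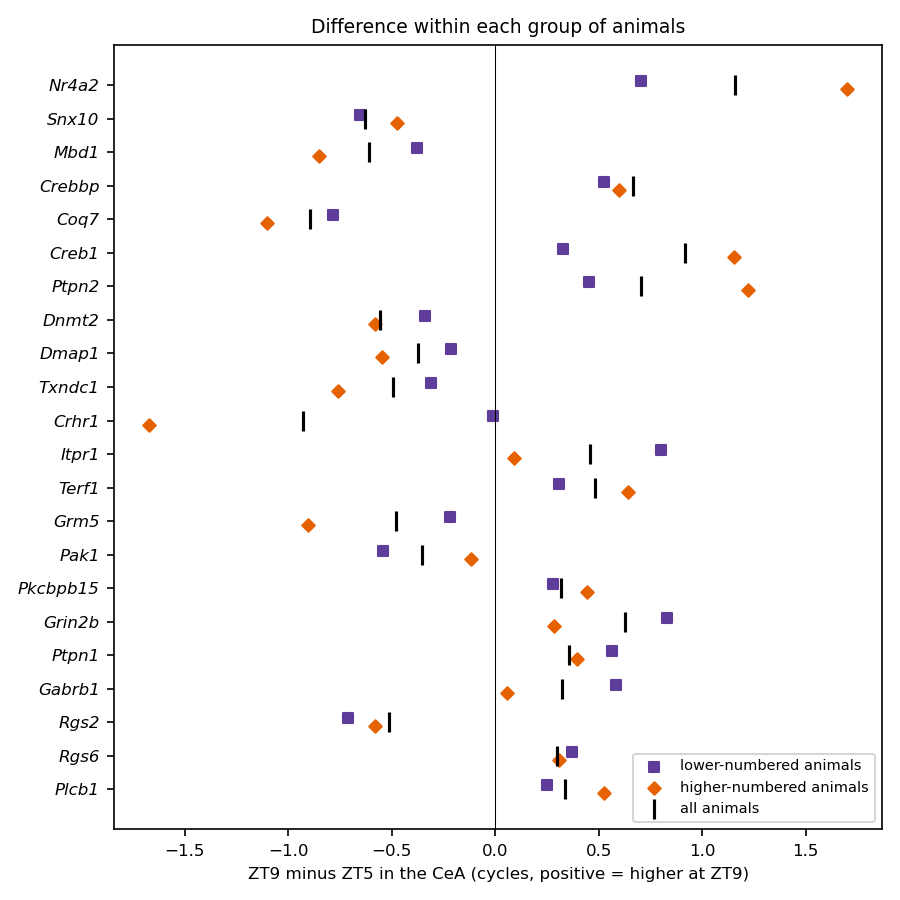
Difference between ZT9 and ZT5 in the CeA in cycles within lower-numbered animals (squares), within higher-numbered animals (diamonds) and over all animals (bars), for 22 of the 25 genes with the smallest p-values. Nr4a2 is at 0.71 and 1.7 cycles and Crhr1 at -0.01 and -1.67 cycles.

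The same 2 times were compared in the DVC, with 17 samples at ZT5 and 15 at ZT9. Of the 33 animals in this comparison 25 gave both regions. Of the 19 CeA genes past the unadjusted threshold, 16 had the same sign in the DVC, against 72 of all genes tested, and 3 of them, Nr4a2 (0.78 cycles), Mbd1 (-0.64) and Terf1 (0.90), passed an adjusted limma p of 0.05 there, against 7.59% of the 145 genes tested in the DVC (5.52% higher and 2.07% lower at ZT9). At the unadjusted threshold the DVC shares were 12.4% higher and 9.66% lower, 22.1% in all. The difference of Nr4a2 between the regions was 0.38 cycles with a 95% interval from -0.21 to 0.98 (limma adjusted p = 0.582), and that of Creb1 was 0.07 cycles with an interval from -0.72 to 0.86. Snx10 was at -0.20 cycles in the DVC (limma unadjusted p = 0.264). Its difference between the regions was -0.43 cycles with a 95% interval from -0.90 to 0.04.

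Some other genes among the 19 had CeA and DVC values farther apart than those of Nr4a2 and Creb1. For the difference between regions limma called 0 genes at the adjusted threshold and 20 at the unadjusted one (14.1%), 5 of them among the 19. Coq7 was at -0.89 cycles in the CeA and 0.07 in the DVC (interaction unadjusted p = 0.0101) and Pak1 at -0.36 and 0.19 cycles (unadjusted p = 0.00874), both with a limma adjusted p of 0.24. Crebbp was at 0.67 and 0.02 cycles (interaction 0.65 cycles, 95% interval 0.10 to 1.20, limma unadjusted p = 0.0214, adjusted p = 0.281). These genes were picked for their CeA difference, which enters the interaction, so the unadjusted values are descriptions.

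**Figure D5:**
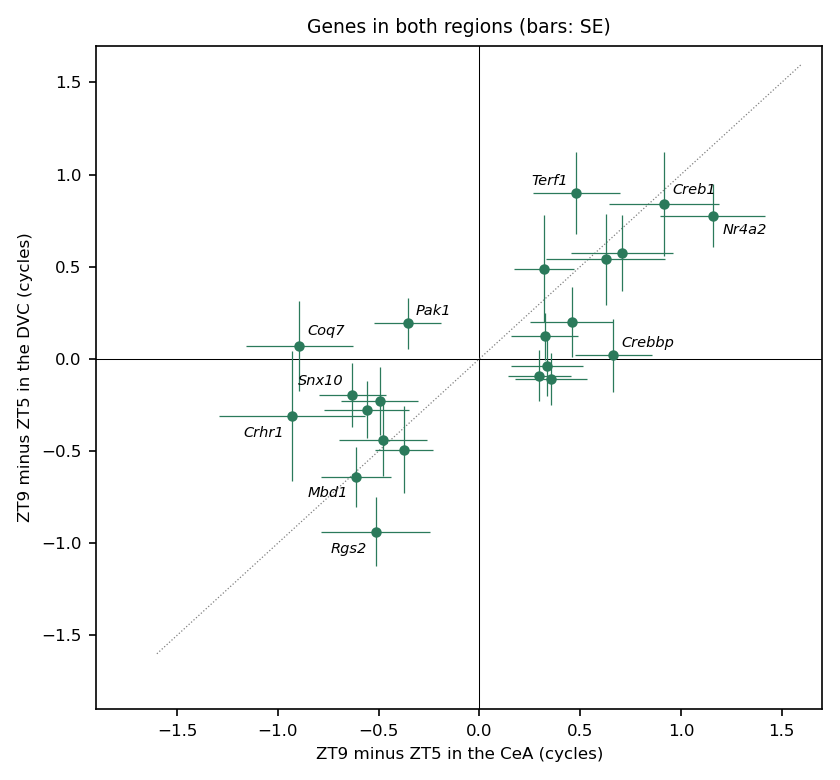
Difference between ZT9 and ZT5 in the CeA (x axis) against that in the DVC (y axis), in cycles with bars of 1 SE, for 22 of the 25 genes with the smallest p-values in the CeA. The dotted line marks equal values. Nr4a2, Creb1 and Mbd1 lie near it, and Coq7 and Crebbp lie near 0 in the DVC.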

How the data were processed

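Microfluidic qRT-PCR gave C_T values of 145 genes for each of 72 samples, of which 26 carry the comparison. The deposited C_T values, on a log2 scale, come both non-normalized and quantile-normalized by the authors. Quantile normalization of all 72 samples returned the authors' values to within 4.99e-09 cycles. A deposited table of the authors' own fold changes was not used. Samples were assigned from titles and matched to columns by animal number. The main test was limma 3.58.1 (R 4.3.3) on minus the normalized C_T with Benjamini-Hochberg adjustment, for genes with at least 2 values a side. Failed reactions stayed missing. Results of some genes are not reported here, though counts over all genes include them. Regions were compared in limma with the animal as a block (consensus correlation 0.0457). Permutation tests, two-sided, were exact or used 100000 draws. The genes named in full are the 12 with the smallest p, the next 13 with difference and p, list examples and checks. Members and gene lists were chosen with earlier results of these data known. The 95% confidence intervals are limma's. The fit was run on simulated data with equal spread at both times and no normalization step, which does not bear on unequal spread or scaling. No 2 samples were alike, the smallest largest gene difference being 1.72 cycles. Identifiers were matched to RefSeq for 144 of 145 genes, and 113 had a promoter window. Primer sequences come from the study's primer table. The number of samples limits the precision, and depth in reads does not apply. Alternatives were other normalizations, filters, tests, samples and covariates.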

Additional observations from a re-analysis of the deposited data

How the results depend on the processing

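The count of genes at the adjusted threshold, 2, was small enough to move with most settings. It was 1 without the partly measured samples, 0 on non-normalized C_T (5 genes at the unadjusted threshold), 6 with quantile normalization of the 26 samples alone, 5 with only genes measured in every fully measured sample, 7 with the ZT3 samples in the fit, 5 with the animal group as a factor and 5 with the animal number as a covariate. It was 0 in lower-numbered animals alone (7 unadjusted), 4 in higher-numbered animals alone and 0 with Welch's test on each gene (18 unadjusted). With 1 sample left out it ranged from 1 to 7, and the unadjusted count, 19, from 14 to 21. With Hprt as reference 29 genes passed unadjusted, 27 of them higher, as the median of all genes shifted by 0.27 cycles. Chosen after seeing the data, centring each set of assays without the partly measured samples gave 1 gene, as did quantile normalization of the 24 fully measured samples. As thresholds, the unadjusted p gave 19 genes and 0.25 cycles 52. Gene lists with a member past the unadjusted threshold fell from 13 to 4 on non-normalized C_T, and region differences from 20 to 13 with only animals that gave both regions.

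With the replicate number as a block (replicate block) 0 genes passed the adjusted and 17 the unadjusted threshold. The deviations of same-numbered samples correlated from -0.33 to 0.57, with 4 of 10 over 0.1 and 3 of 10 matching best with their own number, and the labels do not say that a number pairs samples, so the block was not taken as pairing. Nr4a2 missed the adjusted threshold on non-normalized C_T, in lower-numbered animals alone, under the block and with Welch's test. The direction of some values turned. Egr1 was 0.13 with Hprt as reference, 0.23 in higher-numbered animals and from -0.29 to 0.0097 with 1 sample left out. Jun was 0.042 and Hprt 0.049 in higher-numbered animals, and Junb was -0.22 in lower-numbered ones. The cause was not tested. The other differences of genes given with full values, and of the next genes by p-value, kept their direction in the alternatives run. Genes named only as list examples were not all recomputed, and some turned between the groups of animals, such as Mgmt (-0.45 in lower-numbered animals) and ZEB1 (-0.43 in higher-numbered ones).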
